A study of Mus musculus with 8 samples.

Results

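Interferon macrophages are the macrophages of a mouse glioma that carried a strong type I interferon signature. They were taken from a pooled single-cell RNA library of CD45+ cells, that is, leukocytes and microglia, isolated magnetically from the tumours of glioma-bearing mice. A cell entered when its barcode held at least 2000 unique molecular identifiers (UMIs, each standing for 1 captured RNA molecule) and 700 genes, with at most 10% mitochondrial UMIs. It also needed at least 4 UMIs of the macrophage genes Csf1r, Fcgr1, Adgre1 and Cd14 together, no UMI of Cd3d, Cd3e or Cd3g, fewer than 20 CP10K (UMIs per 10000 of the cell) of S100a8 and S100a9, and fewer than 3 CP10K of the cell-cycle genes Top2a, Mki67 and Birc5. The interferon macrophages were then selected on the measured levels of Rsad2, Ifit1, Ifit2 and Ifit3, called the rule genes here, which had to reach 10 CP10K in sum. These steps left 10487 cells, then 7857, 7108, 6754 and 6258 macrophages, of which 259 passed the last threshold. Interferon macrophages were thus 4.14% of the noncycling glioma macrophages (3.66 to 4.66%, exact Clopper-Pearson interval) and 2.47% of all glioma cells. The 2 libraries together held 22597 such cells.

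The labels list 4 samples of tumour from glioma-bearing mice and 4 samples of normal mouse brain, all sorted for CD45. Strain, age, tumour model, any treatment and the time after tumour onset are not given in the sources used here. Counts were deposited as 1 pooled library per group, and no barcode could be traced to an animal, so no test was run on any difference and no spread between animals can be given. All intervals are 95% intervals that cover counting error only. The glioma library held 159689787 UMIs and the control library 124023146. Of the cells, 37 barcodes passed the limits in both libraries, and 2 of the 259 interferon macrophages had a barcode with at least 300 UMIs in the control library.

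Type I interferons (interferon alpha and beta) are cytokines that cells release on sensing foreign or misplaced nucleic acid. They bind the receptor Ifnar1/Ifnar2, which activates a complex of transcription factors that includes Stat2 and Irf9, and this complex binds interferon-stimulated response elements in the promoters of antiviral genes. Interferon gamma, made mainly by T and NK cells, signals through a receptor of its own and is known for inducing Cxcl9, the guanylate-binding proteins and the MHC class II activator Ciita. In tumours, macrophages of monocyte origin can carry either signature.

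The promoters of the genes that define or track this state are shown because the results below turn on which genes were high together with the rule genes. Each is the RefSeq window from 250 bases before to 50 bases after the gene start (GRCm38.p6), written 5′ to 3′ in the gene's direction, with capitals where the response element core GAAANNGAAA or its reverse complement TTTCNNTTTC was found. The windows lie at chr12:26456403-26456702 (minus strand) for Rsad2, chr12:26468965-26469264 (plus) for Cmpk2, chr19:34640639-34640938 (plus) for Ifit1, chr19:34583279-34583578 (plus) for Ifit3, chr5:92348840-92349139 (minus) for Cxcl10 and chr5:92328030-92328329 (minus) for Cxcl9.
Rsad2: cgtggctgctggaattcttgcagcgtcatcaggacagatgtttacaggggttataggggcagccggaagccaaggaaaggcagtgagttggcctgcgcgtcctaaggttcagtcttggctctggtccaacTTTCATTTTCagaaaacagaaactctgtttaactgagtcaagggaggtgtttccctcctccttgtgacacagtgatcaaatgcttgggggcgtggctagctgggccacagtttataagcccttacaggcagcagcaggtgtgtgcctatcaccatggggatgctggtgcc
Cmpk2: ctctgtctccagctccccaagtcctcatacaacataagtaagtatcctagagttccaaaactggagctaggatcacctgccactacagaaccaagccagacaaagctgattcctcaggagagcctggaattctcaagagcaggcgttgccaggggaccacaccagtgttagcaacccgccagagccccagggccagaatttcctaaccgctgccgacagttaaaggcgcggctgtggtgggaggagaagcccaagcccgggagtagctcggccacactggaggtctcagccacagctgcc
Ifit1: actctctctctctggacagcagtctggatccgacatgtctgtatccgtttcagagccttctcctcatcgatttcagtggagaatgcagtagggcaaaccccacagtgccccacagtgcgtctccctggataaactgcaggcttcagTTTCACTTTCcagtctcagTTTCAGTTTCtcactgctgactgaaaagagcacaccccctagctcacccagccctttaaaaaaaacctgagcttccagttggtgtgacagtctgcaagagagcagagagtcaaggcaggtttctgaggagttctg
Ifit3: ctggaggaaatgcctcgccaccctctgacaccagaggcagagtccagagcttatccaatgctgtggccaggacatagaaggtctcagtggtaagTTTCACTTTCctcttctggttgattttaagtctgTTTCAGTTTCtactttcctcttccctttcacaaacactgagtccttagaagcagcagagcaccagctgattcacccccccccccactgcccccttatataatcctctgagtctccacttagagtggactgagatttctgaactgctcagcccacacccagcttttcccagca
Cxcl10: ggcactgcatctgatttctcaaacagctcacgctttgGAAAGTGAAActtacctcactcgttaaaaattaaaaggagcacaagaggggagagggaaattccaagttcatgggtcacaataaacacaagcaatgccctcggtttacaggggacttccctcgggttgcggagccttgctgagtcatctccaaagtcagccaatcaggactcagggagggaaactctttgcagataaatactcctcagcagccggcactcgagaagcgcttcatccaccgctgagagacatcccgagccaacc
Cxcl9: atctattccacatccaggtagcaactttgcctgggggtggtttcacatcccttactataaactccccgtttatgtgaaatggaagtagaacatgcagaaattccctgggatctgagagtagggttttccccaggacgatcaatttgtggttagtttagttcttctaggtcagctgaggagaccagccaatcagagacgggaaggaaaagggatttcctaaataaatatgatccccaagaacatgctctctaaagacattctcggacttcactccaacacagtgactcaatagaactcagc

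The core occurred once in the Rsad2 window, with its first base at -120 from the start. Ifit1 held 2 matches, at -104 and -85, and Ifit3 held 2, at -156 and -122, while the windows of Ifit2 and Cmpk2 held none. Isg15 held 3 overlapping matches. Cxcl10 held 1 match, at -213, and Cxcl9 none. Over all 32851 windows, 3.44% held at least 1 match, and 1079 of 27025 genes (3.99%) had such a window. Among genes with a window, matches were found for 3 of the 4 rule genes, 9 of 18 of the 20 genes of largest ratio named below, 13 of 34 of the type I effector list, 10 of 15 of the interferon gamma list and 0 of 8 of the MHC class II list. A match describes the letters of the window and is no evidence of a bound site.

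The rule genes encode well-studied antiviral proteins: Rsad2 is viperin, a radical SAM enzyme, and Ifit1, Ifit2 and Ifit3 bind viral RNA or one another. Since they chose the cells, their levels are a description. Rsad2 (chromosome 12, 26442746 to 26456452, minus strand) had 2397 CPM (the gene's share of the summed UMIs, times 1000000) in interferon macrophages and 25.6 CPM in the other glioma macrophages. Ifit1 (chromosome 19, 34640871 to 34650009) had 726 CPM in interferon macrophages and 9.0 CPM in the others. Ifit2 (chromosome 19, 34550694 to 34576419) had 442 and 8.48 CPM, and Ifit3 (chromosome 19, 34583531 to 34588731) had 293 and 4.84 CPM, in the same order. These positions are those of GENCODE M21 on GRCm38 (mm10), matched by Ensembl ID.

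The score formed a continuous tail without a gap at the threshold. Interferon macrophages had a median of 24 rule UMIs per cell (4 to 354) and of 24.8 CP10K (10.1 to 323), whereas 73.9% of the 5999 other macrophages had no rule UMI. Just inside the threshold, 27 cells lay between 10 and 12 CP10K, with Cmpk2 at 29.7 CPM and Isg15 at 1303 CPM. Just outside it, 47 cells lay between 8 and 10 CP10K, with Cmpk2 at 20.1 CPM and Isg15 at 1007 CPM. The cells are therefore a range of a score and not a separate class. Free RNA of the glioma library (barcodes too shallow to be cells) held the rule genes at 126 CPM, above the 47.9 CPM of the other macrophages and far under the 3858 CPM of interferon macrophages. The other macrophages with a score above 0 nevertheless had more of the genes outside the rule than those at 0, with Isg15 at 383 against 194 CPM and Mx1 at 17.1 against 4.62 CPM; the part of free RNA in their rule UMIs was not tested.

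**Figure D1:**
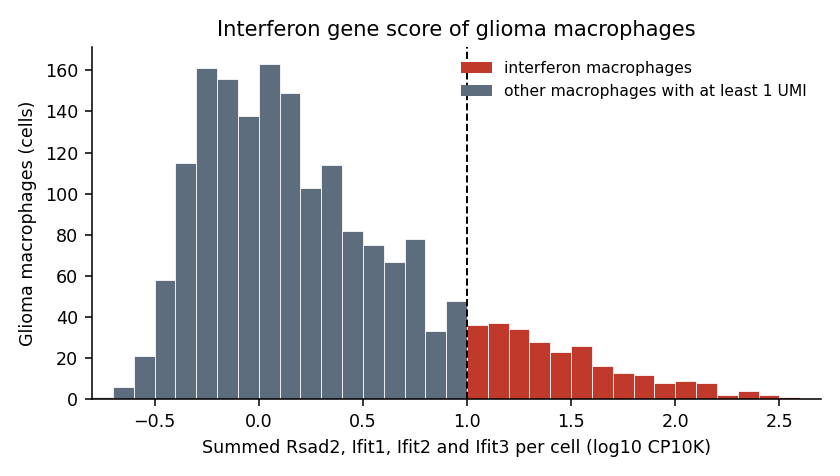
Distribution of the summed Rsad2, Ifit1, Ifit2 and Ifit3 level per cell (log10 CP10K, x axis) over noncycling glioma macrophages with at least 1 such UMI (cells, y axis). The dashed line is the 10 CP10K threshold, which cuts a continuous tail: 27 cells lie between 10 and 12 CP10K and 47 between 8 and 10. The 4431 cells without a rule UMI are not drawn.

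Interferon macrophages were shallower than the cells they were set against, with a median of 9059 UMIs and 2238 genes against 13179 UMIs and 2965 genes in the other macrophages. Mitochondrial UMIs had a median of 2.94% in interferon macrophages and 3.55% in the others. The label was set beside marker genes, most of which the rule fixed: Rsad2, Ifit1 and Ifit2 chose the cells, the gate asked for macrophage genes, and cells with a Cd3 UMI were left out. Cmpk2, the fourth marker of the type I interferon state and not used by the rule, stood at 215 CPM. A Cmpk2 UMI was seen in 126 of 259 interferon macrophages, and the top 10 cells held 43.5% of its UMIs. All 10 macrophage markers, some of them gate genes, were detected, at 10741 CPM in sum against 13932 CPM in the other macrophages. T cell markers summed to 4.41 CPM in interferon macrophages and 8.05 CPM in the others, with Trac and Cd8b1 at 0 beside the Cd3 genes that had to be. Microglia markers summed to 43.0 CPM in interferon macrophages and 68.7 CPM in the others, with Sall1 and Slc2a5 at 0. Neutrophil markers summed to 177 CPM in interferon macrophages and 91.6 CPM in the others, with Ly6g at 0. Plasmacytoid dendritic cell markers, cells known for making type I interferon, summed to 124 CPM in interferon macrophages and 83.5 CPM in the others, with Cox6a2 and Klk1 at 0. The median cell had 0 CP10K of the T cell, NK cell, B cell, neutrophil and microglia lists in both groups. For the plasmacytoid dendritic cell list it had 1.01 CP10K in interferon macrophages and 0.54 CP10K in the others.

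The first comparison set the 259 interferon macrophages against the 5999 other noncycling glioma macrophages, in 12506 genes with at least 20 UMIs over both sums. A gene was called when its CPM ratio reached 2-fold. In this comparison, 873 genes (6.98%) were called higher and 944 (7.55%) lower. With a counting interval that also excluded equality, 453 genes (3.62%) were higher and 329 (2.63%) lower. The median log2 ratio of all 12506 genes was -0.13, and 39.3% of them had a ratio above 0. These shares of all genes are the background of each count of list members given below for this comparison. The score and its threshold come from the same cells, so these calls describe the cells and support nothing.

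Genes of the type I interferon response outside the rule were at a higher level in interferon macrophages almost throughout. In the effector list, 40 of 44 measured members were at least 2-fold higher and none was 2-fold lower, with a median log2 ratio of 2.31. Cmpk2, a mitochondrial nucleotide kinase that neighbours Rsad2 on chromosome 12 (26469204 to 26479837, plus strand), had 215 CPM in interferon macrophages and 2.28 CPM in the others, a log2 ratio of 6.56 (6.32 to 6.80). Ifit1bl1 and Ifit3b, with log2 ratios of 6.93 (6.56 to 7.32) and 6.49 (6.004 to 7.03), are near copies of rule genes within the Ifit cluster, and reads may be split between such copies. Usp18, a protease that removes ISG15 and dampens the receptor, had 160 CPM in interferon macrophages against 6.73 CPM (log2 4.57, 4.39 to 4.76). Mx1, an antiviral GTPase, had 181 CPM against 8.17 CPM (log2 4.47, 4.30 to 4.63).

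At equal depth, each cell thinned to 2000 UMIs, Isg15 was seen in 83.8% of interferon macrophages (78.7 to 88.1%) and 30.3% of the others. Isg15, a ubiquitin-like protein, had the highest level of the list, with 1848 CPM in interferon macrophages and 248 CPM in the others (log2 2.90, 2.85 to 2.94). Of 6 measured genes of its conjugation machinery, Isg15 included, 4 were at least 2-fold higher, among them the ligase Herc6 (log2 2.67) and the conjugating enzyme Ube2l6 (1.94). The activating enzyme Uba7 (0.92) and the ligase Trim25 (0.95) were just under 2-fold. The 4 effectors short of 2-fold were Ly6e (0.33), Ly6a (0.73), Lgals3bp (0.76) and Epsti1 (0.87).

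Gene families of the interferon response were mostly higher too. In the Ifi200 family of DNA-binding PYHIN proteins, 10 of 11 measured members were at least 2-fold higher, and their median log2 ratio was 2.29. Among the listed members Ifi208 had a log2 ratio of 4.35, Ifi206 of 3.70 and Ifi213 of 3.02. Ifi214 (4.21, from 55 UMIs) also belongs to the family but was not in the list and is not in its count. In the list, the DNA sensor Aim2 (0.61, 0.25 to 0.94) was the member short of 2-fold. Of the Schlafen genes, known for restricting translation and cell growth, 6 of 7 were at least 2-fold higher (median 3.11), led by Slfn4 (3.78), Slfn3 (3.25, from 16 UMIs) and Slfn9 (3.22). The Ifitm membrane proteins, which block viral entry, were closer to level: Ifitm3 had a log2 ratio of 0.62, Ifitm2 of 0.00 and Ifitm1 of -0.15 (-0.21 to -0.09). The called member of that list, Ifitm10, had 1 UMI in interferon macrophages and an interval of -4.85 to 3.14. Members of these families share sequence, and reads of close copies can be split between them.

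The other genes among the 20 largest ratios were Tnfsf10 (3.95), Isg20 (3.61), Stfa2l1 (3.54), Trim30c (3.53), Ddx60 (3.24), BC147527 (3.20), Tnfsf15 (3.18), Oasl1 (3.15), Slfn5 (3.11) and Trim30b (3.04). Isg20 is an exonuclease of viral RNA, Oasl1 a 2′-5′ oligoadenylate synthetase-like protein, and Tnfsf10 the death ligand TRAIL. Stfa2l1, a stefin known from neutrophils, rested on 27 UMIs and stood at 17.4 CPM in free RNA. The 10 smallest ratios all belonged to genes without a UMI in interferon macrophages. Against a floor of 3 UMIs, Aldh1a3, a retinal dehydrogenase, had a bound of 2.61-fold lower and the matricellular gene Cyr61 one of 2.58-fold. The other 8 (Slc16a13, Mcpt1, Hmgn3, Swsap1, Mcm8, Dus4l, Tbc1d19 and Brca2) had bounds of 1.67- to 2.09-fold. Few of the other macrophages carried such UMIs: 1.03% of cells for Aldh1a3, 0.883% for Cyr61 and 0.117% for Mcpt1. The bounds count UMIs and do not allow for this, so they are not firm limits. With the threshold at 5 CP10K, Aldh1a3 had a log2 ratio of 0.54.

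**Figure D2:**
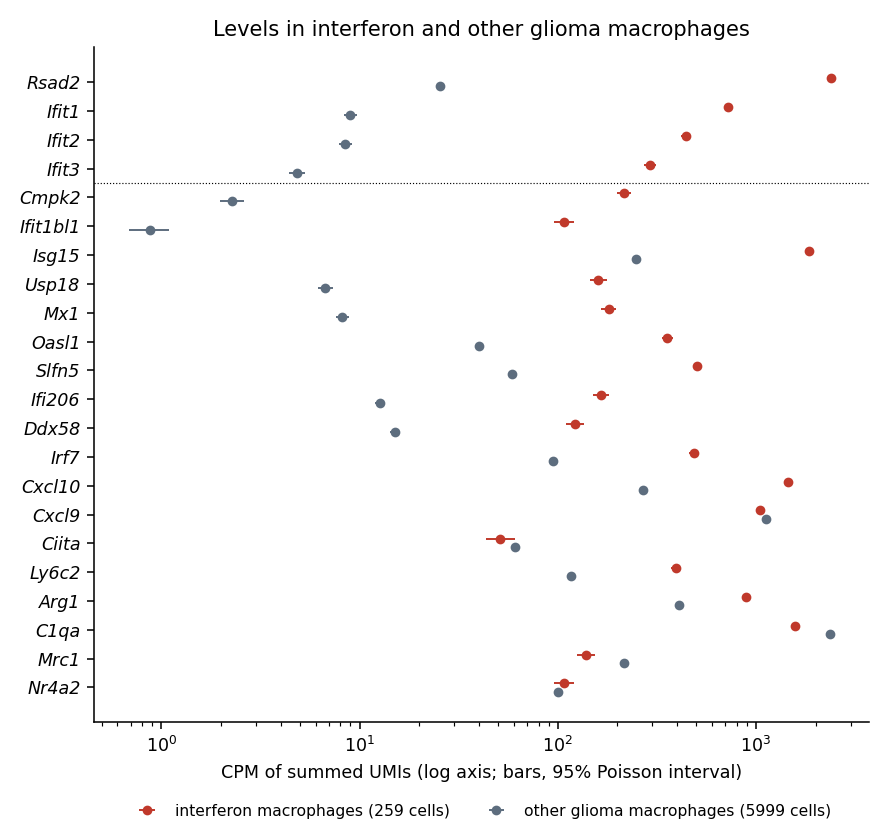
CPM of 22 genes (log x axis, 95% Poisson intervals) in 259 interferon macrophages (red) and 5999 other glioma macrophages (grey); the genes above the dotted line chose the cells. Cmpk2 stood at 215 against 2.28 CPM and Cxcl10 at 1442 against 269 CPM, while Cxcl9 and Nr4a2 differed by less than 1.2-fold.

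Upstream of these effectors, levels of the sensors and the receptor pathway were uneven. Among 14 sensors of viral nucleic acid, 6 were at least 2-fold higher (median log2 ratio 0.87). The RNA sensors Ddx58 (RIG-I) and Ifih1 (MDA5) led, with 122 CPM in interferon macrophages against 15.03 CPM (log2 3.03, 2.85 to 3.20) and 192 against 29.8 CPM (log2 2.69, 2.55 to 2.82). Dhx58 (1.73) and the DNA sensor Mb21d1, or cGAS (1.56), followed. Of their adaptors, Myd88 was higher, with 98.8 CPM in interferon macrophages and 59.5 CPM in the others (log2 0.73, 0.55 to 0.91). The others were not: Tmem173 (STING) had a log2 ratio of -0.20 (-0.45 to 0.03), Ticam1 of -0.15 (-0.59 to 0.24) and Mavs of -0.83 (-1.41 to -0.35).

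In receptor signalling, beside 6.98% of all genes, 2 of 17 members were at least 2-fold higher and the median was 0.28. These were Irf7, the master regulator of interferon alpha genes, at 485 CPM in interferon macrophages against 94.3 CPM (log2 2.36, 2.28 to 2.45), and Stat2 (1.80, 1.64 to 1.95). Irf9 (0.72) was under 2-fold. The receptor genes Ifnar1 (0.26) and Ifnar2 (0.28) were slightly higher, Ifngr1 (-0.34, -0.48 to -0.20) was lower and Ifngr2 had a ratio of 0.00. Irf3, the factor that acts before the receptor, was lower at -0.88 (-1.38 to -0.45). Among 10 feedback inhibitors, Usp18 and Trim30a (2.07) were at least 2-fold higher, while Socs1 (0.53) and Socs3 (0.31) were not.

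RNA of the interferons themselves was scarce. Ifnb1, the gene of interferon beta, had 22 UMIs in 7 of 259 interferon macrophages (2.703%, 1.09 to 5.49%), of which 16 came from 1 cell. It had 6 UMIs in 4 of 5999 other macrophages (0.0667%, 0.0182 to 0.171%) and 14 UMIs in 6 of 3733 glioma cells that were not macrophages by the rule. The cell with 16 Ifnb1 UMIs had a rule score of 71.0 CP10K. No UMI of any of the 13 interferon alpha genes listed was found in the 10487 glioma cells. Ifng had 3 UMIs in interferon macrophages and 3129 UMIs in the 1199 cells gated on Cd3.

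Genes of the interferon gamma response were mostly higher. Of 25 measured members, 11 were at least 2-fold higher and none 2-fold lower, with a median log2 ratio of 0.95, and 23 had a ratio above 0. Cxcl9 and Ciita were the 2 below 0. Tgtp1 (2.10, from 38 UMIs), Nos2, the inducible nitric oxide synthase (1.95), the costimulatory receptor Cd40 (1.64) and the guanylate-binding protein Gbp5 (1.58) led. Nos2 was carried by few cells: 71 of 259 had a UMI, and the top 10 cells held 47.7% of its UMIs. Cxcl9, a chemokine for T cells, had 1052 CPM in interferon macrophages and 1121 CPM in the others (log2 -0.09, -0.15 to -0.04). Ciita had a log2 ratio of -0.24 (-0.49 to 0.00). Irf1, a target of both interferons, had 0.41 (0.29 to 0.53) and Cd274, which encodes PD-L1, 0.93 (0.84 to 1.03).

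Antigen presentation was described by class. Among 21 genes of MHC class I and its peptide loading, 2 were at least 2-fold higher (median log2 ratio 0.31), beside 6.98% of all genes. The 2 were the nonclassical genes H2-T24 (2.30, from 20 UMIs) and H2-T22 (1.22). For MHC class II the median ratio was -0.31, beside -0.13 over all genes. Of 11 measured members, 10 had a ratio under 0, none of them 2-fold lower, while 39.3% of all genes had a ratio above 0. H2-Aa was at 4329 CPM in interferon macrophages and 5364 CPM in the others (log2 -0.31, -0.34 to -0.28), and the invariant chain Cd74 at 9544 and 11965 CPM (log2 -0.33). The exception, H2-Eb2, rested on 2 UMIs (1.10, -2.30 to 2.76).

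**Figure D3:**
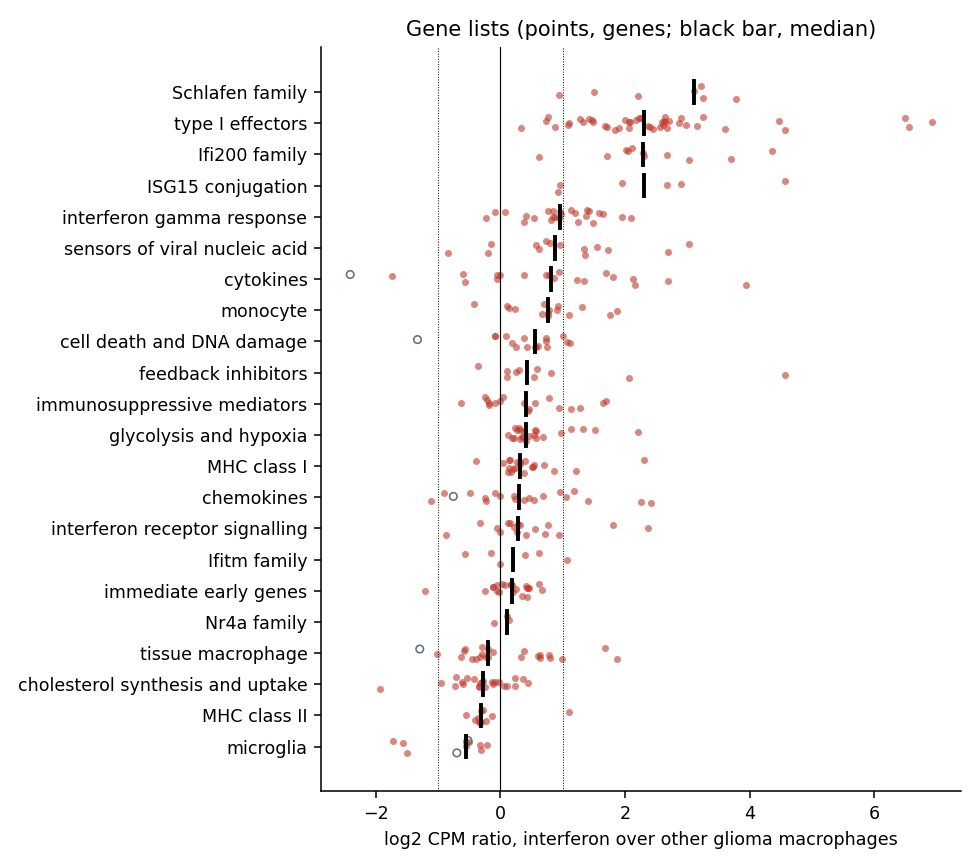
Log2 CPM ratio of interferon over other glioma macrophages (x axis) for each measured member of 22 gene lists, rule genes left out. Points are genes, open circles are genes without a UMI in interferon macrophages, black bars are medians and dotted lines mark 2-fold; the type I effector median was 2.31, that of the interferon gamma list 0.95 and that of MHC class II -0.31.

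Along the score, genes of the type I response and Cxcl9 took different courses. Cells were binned at scores of 0, above 0 to under 10, 10 to under 20, 20 to under 40, 40 to under 80, and at least 80 CP10K, with 4431, 1568, 107, 77, 41 and 34 cells. Cxcl10 had 234, 356, 660, 1050, 1875 and 5215 CPM in these bins, higher in each bin than in the one before. Cxcl9 had 922, 1618, 1345, 1086, 617 and 344 CPM, with its highest level in the bin under the threshold and its lowest in the top bin. Both are ligands of the receptor Cxcr3, which draws T and NK cells.

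The same order was seen in shares of cells thinned to 2000 UMIs. Cxcl10 was detected in 14.8, 22.3, 43.9, 53.2, 53.7 and 97.1% of cells. Cxcl9 was detected in 42.3, 56.6, 48.6, 44.2, 34.1 and 20.6% of cells. Its intervals were 40.9 to 43.8% at a score of 0 and 8.70 to 37.9% at 80 or more. They cover counting error only, and the animals behind the cells of each bin are not known. The top bin rests on 34 cells, a median of 7412 UMIs per cell and 99 Cxcl9 UMIs in all. Free RNA held 875 CPM of Cxcl9, above the level of that bin.

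Ciita followed Cxcl9, with 56.2, 72.2, 71.2, 46.4, 32.5 and 6.94 CPM, the last from 2 UMIs (Poisson interval 0.84 to 25.1 CPM). The interferon gamma list as a whole did not fall in this way. Its summed level, Cxcl9 included, was 2615, 4232, 4811, 5123, 4328 and 4906 CPM. Gbp5 was higher in each bin than in the one before and reached 243 CPM in the top bin. Gbp2 had 264 CPM at a score of 0 and 628 CPM in the top bin. The summed level of the MHC class II list was 30521 CPM at a score of 0 and 19573 CPM in the top bin. Irf7 had 74.5, 144, 350, 536, 552 and 836 CPM. Irf1 lay between 163 and 250 CPM in all 6 bins. Cmpk2 had 1.34, 4.62, 48.8, 91.4, 262 and 1190 CPM.

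**Figure D4:**
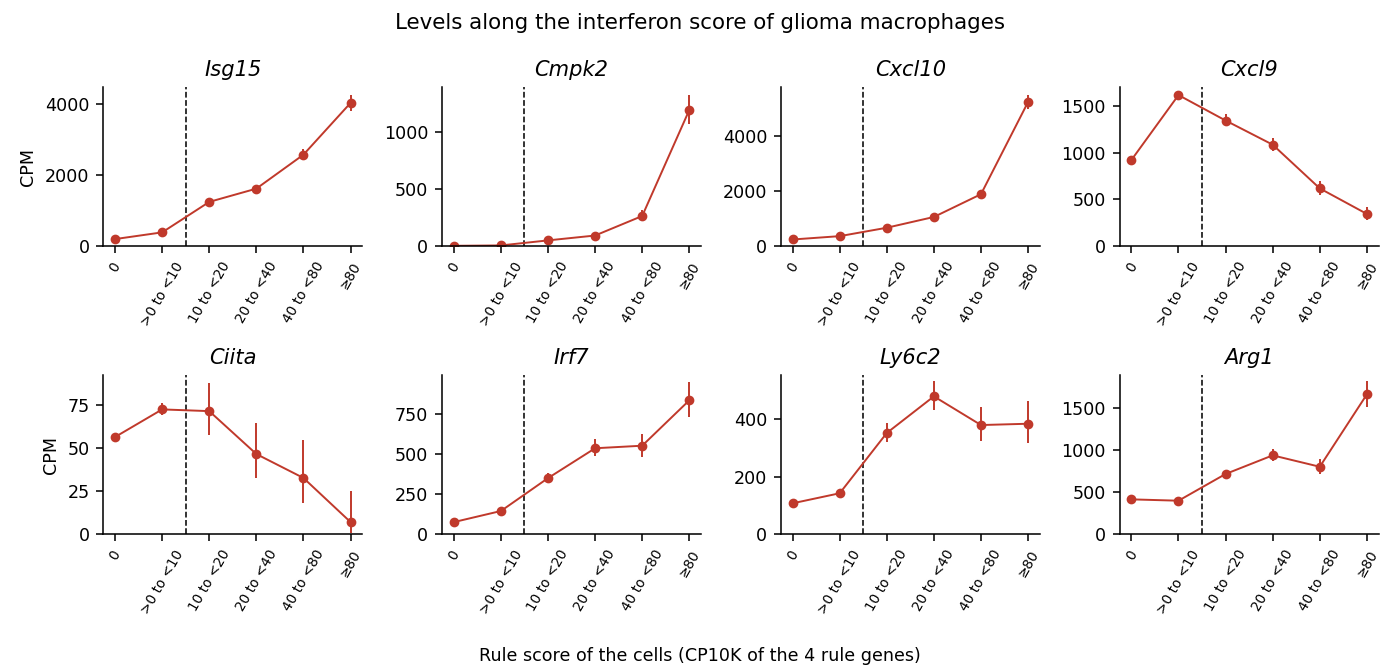
CPM (y axes, linear, each with its own scale) of 8 genes over 6 bins of the rule score (x axis, CP10K), with 95% Poisson intervals; bins right of the dashed line are the interferon macrophages. Cxcl10 reached 5215 CPM in the top bin of 34 cells while Cxcl9 stood at 344 CPM there.

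Of 20 measured chemokines, Cxcl9 and Cxcl10 included, 5 were at least 2-fold higher and 1 lower, beside 6.98% and 7.55% of all genes. The median log2 ratio of the list was 0.30 (0.42 with Cxcl13, at 0 UMIs, set to its bound). Ccl4 had 482 CPM in interferon macrophages against 101 CPM (log2 2.25, 2.17 to 2.33), but the top 10 cells held 56.1% of its UMIs. Ccl3 had a log2 ratio of 1.40, the neutrophil attractant Cxcl3 1.18 (0.70 with the threshold at 5 or 20 CP10K) and the monocyte attractant Ccl7 1.05. Ccl7 was carried by few cells: 42 of 259 had a UMI, and the top 10 cells held 72.9% of its UMIs. Cxcl14 was lower (-1.12, -2.54 to -0.16, from 7 UMIs). Of 20 cytokine genes, 8 were at least 2-fold higher and 2 lower, beside the same shares of all genes. Il15, a growth factor of NK and memory T cells, had 29.7 CPM in interferon macrophages and 4.63 CPM in the others (log2 2.69, 2.32 to 3.03). Il12a (2.17, 0.55 to 3.30) and Il23a (2.12, 1.11 to 2.91) rested on 6 and 13 UMIs. Tnfsf13b, which encodes BAFF, was lower (-1.75, -2.96 to -0.89, 9 UMIs), and the other lower gene, Il12b, had no UMI in interferon macrophages. Il1b was nearly level at 2602 CPM in interferon macrophages and 2706 CPM in the others.

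Most monocyte genes were higher, 14 of 15 by any amount beside 39.3% of all genes, and genes of matured macrophages lay on both sides. In the monocyte list, 4 of 15 were at least 2-fold higher and none lower, beside 6.98% and 7.55% of all genes. The median log2 ratio of the list was 0.77. Ly6c2, the surface marker of inflammatory monocytes, had 396 CPM in interferon macrophages and 117 CPM in the others (log2 1.76, 1.66 to 1.85). Plac8 (1.30) and Ace (1.10, from 18 UMIs) were also at least 2-fold higher, Ace falling under 2-fold in 5 of the alternatives tried (lowest 0.72). Ccr2, the receptor for monocyte recruitment, was at 0.14 (0.00 to 0.27). Depth and neutrophil genes differed along with this list: interferon macrophages were shallower, and S100a8 was at 43.3 CPM against 15.8 CPM and S100a9 at 39.6 CPM against 10.5 CPM, within the limit set by the rule. Their part in the result was not tested.

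Of 24 tissue macrophage genes, 2 were at least 2-fold higher and 2 lower, beside 6.98% and 7.55% of all genes. By any amount 10 were higher and 14 lower, around a median of -0.20, beside 39.3% of all genes with a ratio above 0. The complement genes C1qa (-0.58, -0.63 to -0.54), C1qb (-0.40) and C1qc (-0.56) and the mannose receptor Mrc1 (-0.63) were lower, as was the adhesion molecule Vcam1 (-1.02, -1.21 to -0.84). Vcam1 was under 2-fold in 7 of the alternatives tried, with values down to -0.45 when the threshold was 5 CP10K. Gpnmb, a lysosomal glycoprotein, was higher at 1.68, with 62.6% of its UMIs in 10 cells. Lyve1 (1.87, -1.56 to 3.61) rested on 2 UMIs, and Cd163 had none in interferon macrophages and 0.44 CPM in the others. Of 11 microglia genes, 3 were at least 2-fold lower and none higher, beside 7.55% and 6.98% of all genes. The 3 (Gpr34, Sparc and Siglech) were all under 12 CPM in both groups. Siglech rested on 1 UMI (-1.49, -7.39 to 0.43). With the threshold at 5 CP10K none of them was 2-fold lower, with ratios of -0.68 for Gpr34, -0.21 for Sparc and -0.68 for Siglech.

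Genes that mark other glioma macrophage programmes were also seen within interferon macrophages. At 2000 UMIs per cell, Chil3 or Ly6c2 was seen in 49.8% of interferon macrophages (43.6 to 56.1%) and 31.3% of the others (30.1 to 32.5%). Arg1, the arginase of suppressive myeloid cells, was seen in 39.8% (33.8 to 46.0%) and 24.04% (22.96 to 25.1%), and Inhba or Nrg1 in 39.4% (33.4 to 45.6%) and 30.8% (29.6 to 31.9%), in the same order. Cxcl9 was seen in 41.3% of interferon macrophages and 45.7% of the others, and Mmp13 or Vcam1 in 25.1% and 29.1%, with overlapping intervals. Ccl8, Hes1 or Cx3cr1 was seen in 13.9% of interferon macrophages and 14.002% of the others. Unthinned, Arg1 had 890 CPM in interferon macrophages and 408 CPM in the others (log2 1.13, 1.07 to 1.18), and 1662 CPM in the top bin of the score. Its ratio was 0.83 with the threshold at 5 CP10K and 0.92 with every cell thinned, both under 2-fold. Free RNA held 194 CPM of Arg1, 61.2 CPM of Ly6c2 and 171 CPM of Chil3.

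The list of immunosuppressive mediators also holds the costimulatory genes Cd40, Cd80 and Cd86. Of its 18 measured members, 4 were at least 2-fold higher and none lower, beside 6.98% and 7.55% of all genes. The 4 were Arg1, Lgals9 (1.27), Il10 (1.70, 1.28 to 2.07) and the costimulatory Cd40. With the threshold at 20 CP10K the Il10 ratio was 0.69. Il10 was carried by few cells: 12 of 259 had a UMI and 10 of them held 96.7% of the 61 UMIs. In the glycolysis and hypoxia list, 4 of 23 were at least 2-fold higher, beside 6.98% of all genes, with a median of 0.40. These were the oxygen-sensing hydroxylase Egln3 (2.21, 1.93 to 2.48), Ero1l (1.32), the mitophagy receptor Bnip3 (1.14) and Adm (1.51, -0.57 to 2.81, from 4 UMIs). All 23 ratios of that list were above 0, beside 39.3% of all genes. Of 24 cholesterol genes, none was at least 2-fold higher and Lss was lower (-1.94, -5.31 to -0.39, from 2 UMIs). The median of that list was -0.28, beside -0.13 over all genes. Sqle, the squalene epoxidase, had 19.1 CPM in interferon macrophages and 16.4 CPM in the others (log2 0.23, -0.21 to 0.62).

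The series is named for Nr4a2, an orphan nuclear receptor. It had 108 CPM in interferon macrophages and 101 CPM in the others, a log2 ratio of 0.10 (-0.07 to 0.27), and was seen in 14.7% and 16.8% of thinned cells in that order. Nr4a1 (0.14, -0.03 to 0.31) and Nr4a3 (-0.10, -0.31 to 0.10) had intervals that include equality. Immediate early genes, which dissociation can induce, had a median of 0.18. Of these 22, none was 2-fold higher and Egr3 was lower (-1.21, -3.72 to 0.13, from 3 UMIs). Among 17 genes of cell death and DNA damage, 2 were at least 2-fold higher, beside 6.98% of all genes. They were Casp4 (1.12) and Mlkl (1.07), which act in pyroptosis and necroptosis. Mlkl was at 0.92 with the threshold at 5 CP10K. Tnfrsf10b was the lower one, without a UMI in interferon macrophages and with 0.46 CPM in the others. Fcgr1, which belongs to the macrophage gate and so helped choose all cells compared, had a log2 ratio of 1.08, and the other 4 Fc receptor genes lay between -0.03 and 0.40.

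Other cells of the glioma reached the score too. Of 496 cycling macrophages, 15 (3.02%, 1.70 to 4.94%) had at least 10 CP10K of the rule genes. Of 1199 cells gated on Cd3 with few macrophage UMIs, 13 did (1.08%, 0.58 to 1.85%), and of 35 cells gated on S100a8 and S100a9, 8 did (22.9%, 10.4 to 40.1%). The last were shallow, with a median of 2318 UMIs, and their rule genes summed to 93 UMIs. Among 58 cells gated on Ncr1 or Klrb1c none did (upper Clopper-Pearson bound 6.16%).

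In the control library the same rule was met by 55 of 11528 cells, or 0.477% (0.360 to 0.621%). P2ry12 and Tmem119, markers of homeostatic microglia, had 9.18 and 11.7 CPM in interferon macrophages of the glioma and 1295 and 1081 CPM in the control cells meeting the rule. In the other control cells P2ry12 had 2157 CPM and Tmem119 1376 CPM. All 11 measured genes of the microglia list were lower in control cells meeting the rule than in the other control cells. Each group is a single library, so a difference between glioma and control cannot be told apart from a difference between libraries. Of the 14123 genes measured among control cells, 3263 (23.1%) were at least 2-fold higher in cells meeting the rule than in the other control cells and 964 (6.83%) lower, in a sum of 434799 UMIs. That higher count includes genes without a UMI in the cells meeting the rule, because 0.5 UMIs were added to each sum. Cxcr2, with 0 UMIs there and 20 in the other control cells, had a log2 ratio of 2.31. With an interval beyond equality, which no gene at 0 UMIs can reach, 671 genes (4.75%) were higher. Beside these shares of all genes, 41 of 43 measured type I effectors were at least 2-fold higher, with a median log2 ratio of 3.78.

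The make-up of the rule genes differed between the libraries. UMIs are counted at the 3′ end of RNA and need no scaling by length, though capture can differ between genes. Rsad2 gave 62.1% of the rule genes' UMIs in interferon macrophages (61.2 to 63.1%) and 23.1% in control cells meeting the rule (20.3 to 26.2%). Ifit3 gave 7.58% (7.09 to 8.11%) in interferon macrophages and 41.6% (38.2 to 45.0%) in those control cells. By cell, Rsad2 led in 198 of 259 interferon macrophages (76.4%, 70.8 to 81.5%) and in 10 of 55 control cells (18.2%, 9.08 to 30.9%). Ifit3 led in 10 of 259 interferon macrophages and in 28 of 55 control cells.

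Shares were also taken in cells outside the interferon macrophages. Rsad2 gave 53.4% of the rule UMIs in the other glioma macrophages (51.9 to 55.0%), 56.7% in cycling glioma macrophages and 27.1% in the other control macrophages (24.8 to 29.6%). In the Cd3 gate of the glioma it gave 24.9% (20.8 to 29.3%), with Ifit1 at 36.0% (31.4 to 40.8%). Free RNA had 55.9% Rsad2 in the glioma and 30.0% in the control library, close to the cells under the threshold, and its part in those shares was not tested. All 4 rule genes were present in 122 of 259 interferon macrophages, and 34 cells had a single one.

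**Figure D5:**
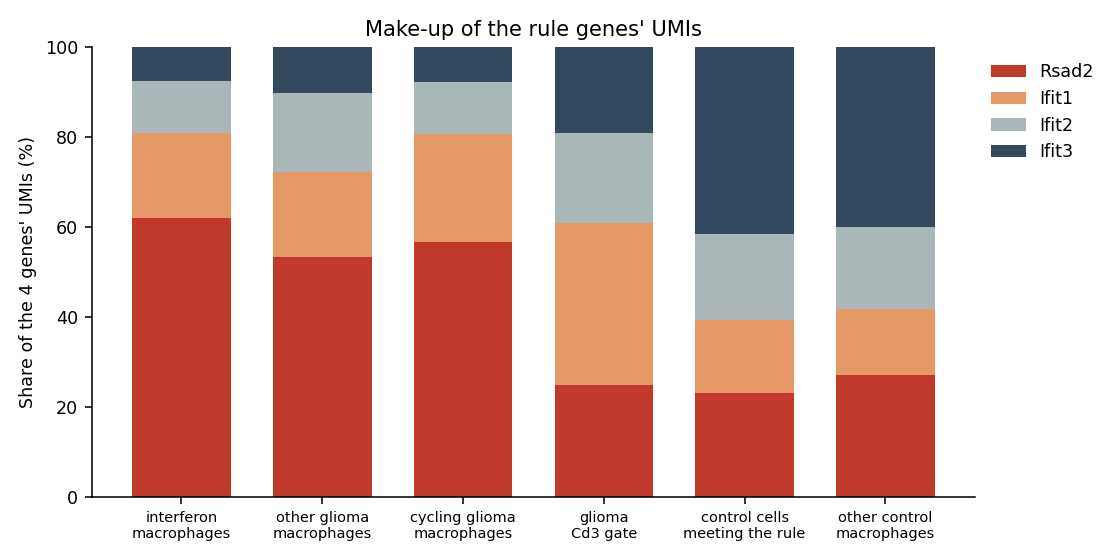
Share of the summed rule-gene UMIs (%, y axis) given by Rsad2, Ifit1, Ifit2 and Ifit3 in 6 sets of cells. These genes chose the interferon macrophages and the control cells meeting the rule. Rsad2 gave 62.1% in interferon macrophages and 23.1% in control cells meeting the rule, where Ifit3 gave 41.6%.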

How the data were processed

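CD45+ cells of 4 glioma and 4 control samples were profiled with droplet 3′ kits of either of 2 chemistry versions, per the labels' protocols. The authors deposited raw UMI counts, 1 matrix per group with all 6794880 barcodes and no cell filter. Tools in the submitters' processing notes are STAR, Cell Ranger 3.0.2 and Seurat 3, and builds mm10 and GRCh38, with no role given.

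Each matrix was treated as 1 library, since no file ties barcodes to samples. Cells were chosen by the rule in the report. The members and gene lists were chosen with earlier results of these data known. UMIs were summed over cells and given as CPM. Ratios are log2 CPM with 0.5 UMIs added to each sum, with conditional binomial 95% intervals; shares have exact Clopper-Pearson and sums exact Poisson intervals. Intervals cover counting error only. Genes needed 20 UMIs over both sums. A gene at 0 was set against a floor of 3 UMIs. For shares of cells, each cell was thinned to 2000 UMIs, which left out no cell. Free RNA came from barcodes ranked 45000 to 90000.

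Named genes were the rule genes, Cmpk2, the 20 largest and 10 smallest ratios among genes with at least 100 UMIs (leaving out mitochondrial and ribosomal protein genes and Gm-numbered models), 2 to 4 members of each list with the largest ratios, the Nr4a family and Sqle; other genes were named after their values were seen. Some genes that the rule names are not reported here. Scrublet (scanpy 1.11.5) marked 4 of 10487 glioma cells at its automatic threshold, which has not worked, so doublets were kept in the main result and removed by rank in an alternative. Ratios and intervals were tested on simulated data. Python 3.11.15, numpy 2.4.6 and scipy 1.17.1 were used.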

Additional observations from a re-analysis of the deposited data

Results flagged for a closer look

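Gene lists were compared between libraries for medians of opposite sign and of at least 0.1 in size, and 3 lists met that. Interferon receptor signalling also had opposite signs with a control median close to 0 (0.28 in glioma and -0.02 in control). Over all measured genes the median was itself -0.13 in glioma and 0.12 in control. The MHC class II list had a median log2 ratio of -0.31 in glioma (interferon over other macrophages) and 1.54 in control (cells meeting the rule over the other control cells). The cholesterol list had -0.28 in glioma and 0.47 in control (0.66 with the 2 genes at 0 UMIs set to their bound), and the glycolysis and hypoxia list 0.40 in glioma and -0.14 in control. These differences were not tested, since each group is 1 library. Levels of H2-Aa were far apart between the libraries, at 4329 CPM in interferon macrophages and 5364 CPM in the other glioma macrophages, but 1474 CPM in control cells meeting the rule and 218 CPM in the other control cells. In the same control comparison the macrophage gene Mrc1 stood at 225 CPM in cells meeting the rule and 47.9 CPM in the others; the part of such cells in the result was not tested.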

How the results depend on the processing

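Of 129 alternative values of 11 summary results, 116 stayed within the limits set for them (1.5 times a count, the interval of a share or level, or the mean error of a list's genes). The share of interferon macrophages, 4.14%, was 4.75% with at most 5% mitochondrial UMIs, 6.70% and 2.43% with the threshold at 5 and 20 CP10K, and 5.72% with cells thinned to 2000 UMIs before the threshold. The 873 genes higher were 406 with a minimum of 100 UMIs, 4866 with no filter and 453 with an interval beyond equality, an alternative chosen after seeing the data. The count without a filter includes genes with no UMI in interferon macrophages, because 0.5 UMIs were added to each sum. Ptprz1, with 0 UMIs there and 1 in the other macrophages, had a log2 ratio of 3.39. The 944 genes lower were 560 with 100 UMIs and 329 with the interval. The type I effector median of 2.31 was 2.10 and 2.57 with the threshold at 5 and 20 CP10K, and 2.64 against cells with a score of 0, where the interferon gamma median of 0.95 was 1.34. With the threshold at 5 CP10K, Aldh1a3 (0.54), Il12b (2.62) and Tnfrsf10b (0.26) changed sign; all 3 had no UMI in interferon macrophages at 10 CP10K. The cause was not tested. Of 87 named genes called at least 2-fold, values kept direction and 2-fold size in 1139 of 1184 alternatives. Removing the 880 cells most like doublets took out 16 interferon macrophages. No paired analysis was possible because barcodes cannot be assigned to samples, and leaving out samples was not run for the same reason. The sum of 2723887 UMIs limits what can be seen of genes under about 1 CPM.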

Other observations

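The genes below are outside the lists, were chosen after their values were seen and stand for no group. In interferon macrophages the RNA-binding helicase Znfx1 had 160 CPM against 33.7 CPM in the other glioma macrophages (log2 2.25, 2.10 to 2.40), the giant ubiquitin ligase Rnf213 304 against 77.8 CPM (1.97), Pml 38.5 against 8.05 CPM (2.26) and Sp100 209 against 66.1 CPM (1.66). Acod1, the itaconate synthase of activated macrophages, had 163 CPM against 35.8 CPM (2.19, 2.04 to 2.34). Slpi, an antiprotease, had 325 CPM against 66.3 CPM (2.29), with 67.3% of its UMIs in 10 cells. The hypoxia-induced lipid droplet protein Hilpda had 377 CPM against 142 CPM (1.41).

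Lower in interferon macrophages were the tetraspanin Cd81, with 108 CPM against 252 CPM (-1.23, -1.40 to -1.06), the surface protein Plet1, with 21.3 CPM against 68.1 CPM (-1.67, -2.08 to -1.31), and the fatty acid synthase Fasn, with 4.77 CPM against 16.0 CPM (-1.69, -2.66 to -0.96). The replication genes Mcm5 and Mcm2 were lower, though other genes of dividing cells were not clearly so (Mki67 -0.33, -0.96 to 0.19; Birc5 0.03, -0.86 to 0.72; both limited by the rule in both groups). Mcm5 was at 4.04 CPM against 13.9 CPM (-1.72, -2.79 to -0.94) and Mcm2 at 3.67 CPM against 10.9 CPM (-1.50, -2.64 to -0.69). Mgl2 (-0.86) and Dnase1l3 (-0.91), genes of macrophages with dendritic cell features, were lower by less than 2-fold.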
